A study of Caenorhabditis elegans with 4 samples.

Results

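The regions described here are the places on chromosome V of Caenorhabditis elegans where chromatin immunoprecipitation with sequencing (ChIP-seq) recorded the transcription factor MML-1. They were selected on chromosome and on strength: all 71 peaks on V in a combined list that has 325 more on the other chromosomes, and the peaks on V with a peak number of 3000 or lower in the list of each ChIP replicate. The peak number orders the peaks of one list broadly by strength, with 1 the strongest. That rule gave 544 of 3000 peaks in replicate 1 and 566 of 3000 in replicate 2, called strong replicate peaks below. The remaining V peaks of the same lists, 5249 in replicate 1 and 5337 in replicate 2, had numbers over 3000 and serve as the background of weak peaks. Since the members were chosen by peak number and by their presence in a list, those values are given as description, and tests are kept to position along the chromosome, which the choice did not use.

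Chromatin of hermaphrodite L3 larvae, strain OP198, gave 2 MML-1 ChIP samples and 2 inputs. The larvae had been kept at 20 °C with E. coli HB101 as food. Every sample shared one genotype, unc-119(ed3) with the integrated transgene wgIs198, which carries mml-1 fused to EGFP, TY1 and FLAG tags together with unc-119. The transgene came from bombardment of an unc-119(ed3) strain with 3 outcrosses, the genotype lists no mutation of mml-1, and the ChIP used an anti-GFP antibody on extracts of the worms, so a peak averages over all cells that expressed the tagged protein. There was no untagged strain and no other condition among the samples analysed. Nothing in the labels says that the replicates came from separate cultures, so differences between them may be technical.

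MML-1 is the worm member of the Mondo family of basic helix-loop-helix leucine zipper transcription factors, relatives of Myc. It acts as a heterodimer with the Max-like protein MXL-2, and factors of this class recognise E-box sequences in DNA. In worms it has been studied for its role in lifespan and metabolism, and its mammalian relatives MondoA and ChREBP respond to glucose. Worm autosomes have a central part with little recombination, rich in highly expressed and conserved genes, flanked by arms that recombine more and hold more repeats. All positions below are on the build WormBase WS220, as in the files. No annotation or genome of that build was used, so regions are given by position, without genes or sequence.

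The leading MML-1 region on V by q-value, the significance measure of the authors' peak caller in the combined list, lay in the chromosome centre at 12636848 to 12638031. Its q-value was 7.23e-75, the overlapping peaks had number 8 in replicate 1 and 12 in replicate 2, and at 1184 bp it was also the widest combined peak on V. The region with the lowest peak numbers lay instead far out on the right arm, at 19528819 to 19529617 (q = 5.36e-64), where its numbers were 5 in replicate 1 and 6 in replicate 2. On the left arm the leading region was at 2133561 to 2133927 (q = 2.40e-28), with numbers 19 and 13. Each part of the chromosome thus had one region that ranked among the first 20 peaks of the whole genome in both replicates.

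A further centre region, 11799133 to 11799640 (q = 1.23e-21), had numbers 24 and 38 in replicates 1 and 2. At these 4 regions the replicates placed the peak almost at the same base: the midpoints lay 3 bp apart at 12636848 to 12638031, 23 bp apart on the right arm, 5 bp apart on the left arm and 4 bp apart at 11799133 to 11799640. The strongest peaks were also drawn more narrowly than the rest. In replicate 1, 539 of the 544 strong peaks shared a width of 504 bp, and the 5 narrower ones had numbers of 30 or lower. In replicate 2, 563 of 566 were 520 bp wide, and the 3 narrower ones had numbers of 13 or lower.

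The third combined peak on V by q-value was matched less well. It covered 9095453 to 9096213 (q = 9.34e-32) and had number 30 in replicate 1, but the replicate 2 peak overlapping it had number 5196. A strong replicate 2 peak, number 533, lay 21 bp beyond its edge. The next regions in order of q-value lay close together in the centre. For the peak spanning 10715702 to 10716545 (q = 2.79e-15) the replicate 1 number was 61 and the replicate 2 number 129. Its neighbour, 10717186 to 10717749 (q = 2.54e-11), had numbers 186 and 344. Between these in q-value stood 10719673 to 10720158 (q = 1.58e-12), with numbers 93 and 5433 and with the replicate 2 peak number 40 lying 266 bp away. All 3 belonged to one cluster, described further on.

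The remaining regions among the leading 12 were strong in both lists. For the centre peak spanning 12157626 to 12157939 (q = 5.21e-11) the numbers were 55 in replicate 1 and 354 in replicate 2. On the left arm, the peak at 5271433 to 5271792 (q = 1.08e-10) had numbers 75 and 62, and its replicate midpoints were 2 bp apart. The left-arm peak at 6240727 to 6241093 (q = 1.53e-10) differed more, with number 583 in replicate 1 against number 25 in replicate 2, although the midpoints were 5 bp apart. The peak that completed the 12, spanning 12634749 to 12635100 (q = 6.54e-08), had numbers 78 and 35. Of these 12 regions, 8 were in the centre, 3 on the left arm and 1 on the right arm. At the other end of the list, the largest q-value on V was 0.00908, at 17857950 to 17858094 on the right arm, where replicate 1 had no peak and replicate 2 had number 9443.

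**Figure D1:**
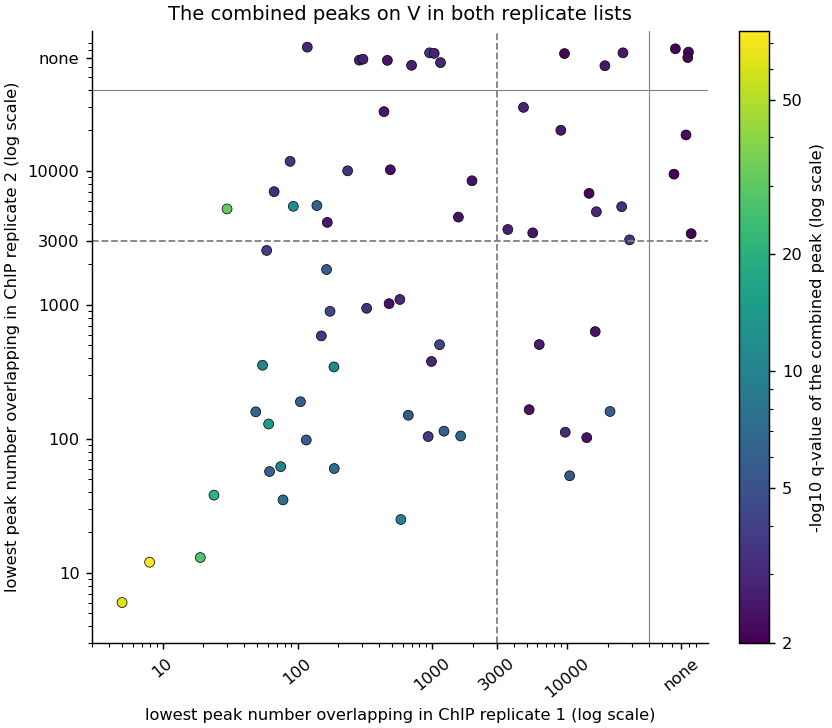
Each point is 1 of the 71 combined peaks on V, placed by the lowest number among the overlapping peaks of ChIP replicate 1 (horizontal, log scale) and of ChIP replicate 2 (vertical, log scale) and coloured by −log10 of its q-value; dashed lines mark number 3000, and points in the bands marked none, spread slightly so that they do not hide each other, overlapped no peak of that list. The 28 points at the lower left are strong in both replicates and include 4 of the 5 regions with the smallest q-values, while 19 lie in the strong range of replicate 1 only and 7 in that of replicate 2 only.

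Combined peaks with small q-values were found in both replicates more often than those with large ones. Across V, 28 of 71 combined peaks overlapped a strong peak in both replicates (39.4%, exact Clopper-Pearson 95% interval 28.0 to 51.7%), where overlap means 1 bp or more. Over all chromosomes the share was 36.1%, so V was near the level of the whole list. Another 19 overlapped a strong peak of replicate 1 only, 7 of replicate 2 only, and 17 of neither. These counts describe V only, and the shares over all chromosomes for each replicate are given further on. Intervals here and below cover counting error only and treat peaks as independent, which neighbouring peaks are not.

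The split followed the q-value. Among the 36 combined peaks on V with the smaller q-values, up to 0.000611, 25 overlapped a strong peak in both replicates (69.4%, 51.9 to 83.7%), against 3 of the 35 with larger q-values (8.57%, 1.80 to 23.1%). How the combined list was made from the samples is not stated, and no ChIP samples other than these 2 were analysed, so this overlap is not taken as independent support for the regions. No split by q-value over all chromosomes stands beside the 69.4% and 8.57%, so they are not read as particular to V. The median number of the overlapping replicate 1 peak was 144.5 among the 36 peaks and 1963 among the 29 of the 35 others that had one. In replicate 2 the medians were 160 (35 peaks) and 3885 (22 peaks). The stronger peaks were also wider, at a median of 350 bp (151 to 1184 bp), against 215 bp (10 to 353 bp) for the others. Within the 36 peaks the q-value followed the peak number with Spearman's rho of 0.59 in replicate 1 and 0.58 in replicate 2, and the numbers in the 2 replicates had a rho of 0.22 (35 peaks). Within the 35 peaks with larger q-values these were 0.20 (29 peaks), 0.24 (22 peaks) and -0.24 (19 peaks). Over all 71 peaks they were 0.64 (65 peaks), 0.62 (57 peaks) and 0.27 (54 peaks). These are descriptions across peaks that share libraries.

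Replicate 1 held more of the combined peaks than replicate 2. Strong peaks of replicate 1 overlapped 47 of the 71 (66.2%, 54.0 to 77.0%; 58.6% over all chromosomes), and those of replicate 2 overlapped 35 (49.3%, 37.2 to 61.4%; 49.0% over all chromosomes). When peaks of any number counted, both replicates had a peak at 54 of 71 (76.1%, 64.5 to 85.4%; 69.4% over all chromosomes). A replicate 1 peak was present at 91.5% (86.4% over all chromosomes) and a replicate 2 peak at 80.3% (78.3% over all chromosomes). On V, 3 combined peaks had none in either list. Those 3, picked out after their values were seen, had large q-values. One spanned 14848552 to 14848836 (q = 0.00587), the next 5758854 to 5758885 (q = 0.00793) and the last 8789 to 8913 (q = 0.00873).

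Several combined peaks that missed a strong peak in one replicate had one close by. In all, 13 of the 43 peaks without overlap in both had a strong peak of each replicate within 1 kb (60 of 253 over all chromosomes). These 13 brought the number to 41 of 71 (57.7%, 45.4 to 69.4%; 51.3% over all chromosomes). Stretches within 1 kb of a strong peak of both replicates made up 0.823% of the span of V. That value counts single bases, so randomly placed peaks, which have a width, would meet the criterion more often. Of the 36 peaks with smaller q-values, 33 met this looser criterion, against 8 of the 35 with larger ones. No such split over all chromosomes stands beside these counts. Examples are the peak at 10536227 to 10536545 (q = 5.60e-06), which was number 53 in replicate 2 and overlapped only number 10403 in replicate 1, with number 457 of replicate 1 lying 144 bp away, and the peaks at 9095453 and 10719673 given above. The 1 kb window and the peak at 10536227 were chosen after the data were seen.

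The 3 combined peaks whose numbers differed most were not among the leading regions. The peak spanning 5844621 to 5844695 (q = 0.00362) had number 437 in replicate 1 against 27631 in replicate 2, and the nearest strong replicate 2 peak was 17739 bp away. For 19528312 to 19528497 (q = 0.000316) the numbers were 28910 and 3052. It lay beside the leading right-arm region, with strong peaks 332 bp away in replicate 1 and 728 bp away in replicate 2. For 10729550 to 10729892 (q = 0.00135) they were 4726 and 29737. The last was a weak match in both lists, whereas the peak at 5844621 was strong in replicate 1 and had no strong counterpart near it in replicate 2.

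The question of how far the replicates share their strong peaks on V can also be asked without the combined list. Few did: 56 of 544 strong peaks of replicate 1 overlapped a strong peak of replicate 2 (10.3%, 7.87 to 13.2%), beside 11.9% over all chromosomes, and 56 of 566 did so in the other direction (9.89%, 7.56 to 12.7%), beside 12.2%. The whole-genome shares lay inside the intervals for V. Among weak V peaks, 4.31% in replicate 1 and 4.40% in replicate 2 overlapped a strong peak of the other list. The strong peaks of replicate 1 covered 1.27% of the span of V and those of replicate 2 covered 1.37%. Coverage is not the share that random placement would give, which is higher because peaks have a width, and that share was not computed.

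Sharing fell steeply with peak number. Among the 17 V peaks of replicate 1 numbered 1 to 100, 11 overlapped a strong replicate 2 peak, and 13 of 49 did in the next class, which ran from there to a number equal to the length of the combined list. The count was 11 of 111 from that number to 1000 and 21 of 367 (5.72%) above 1000 and up to 3000. In replicate 2 the counts were 10 of 13, 14 of 52, 11 of 118 and 21 of 383 (5.48%) in the same classes. The last of these shares stood beside 4.31% and 4.40% among the weak peaks. No share over all chromosomes stands beside these counts. For overlap with a peak of any number in the other list, such shares were available. From the first to the last of these classes they fell from 94.1% to 40.6% on V in replicate 1, and from 95% to 42.35% over all chromosomes. In replicate 2 they fell from 84.6% to 39.4% on V and from 85% to 40.35% over all chromosomes. The fall by this measure was thus not particular to V.

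Against the full list of the other replicate, 45.0% of the strong replicate 1 peaks on V (40.8 to 49.3%; 46.8% over all chromosomes) and 42.9% of those of replicate 2 (38.8 to 47.1%; 44.8% over all chromosomes) had an overlap. Weak V peaks had one in 32.9% and 32.1%. The full lists cover 12.8% and 13.4% of the span of V, so an overlap with a peak of any number is common. Random placement would give a share above this coverage, since an overlap of 1 bp takes in the widths of both peaks. In replicate 1, 299 strong V peaks overlapped no peak of replicate 2, and in replicate 2, 323 overlapped none of replicate 1. The strongest of these in replicate 1 was number 77 at 11887891 to 11888394, which was also the strongest without a combined peak and lay 33624 bp from the nearest one. In replicate 2 it was number 40 at 10720425 to 10720944, 266 bp from a combined peak. The second was part of a cluster present in all 3 lists, whereas the first had no combined peak within 10 kb.

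The overlaps among strong peaks formed 61 pairs, since 1 peak can overlap several. In 14 pairs both peaks fell in the 2 strongest classes. All 14 lay at a combined peak, and their midpoints were a median of 24.5 bp apart. The other 47 pairs had a median distance of 99 bp. Over the 61 pairs, 33 touched a combined peak and 28 did not. Among pairs without a combined peak, the one with the lowest number in replicate 1 was number 161 at 6229355 to 6229858, which met number 1589 of replicate 2, and it was picked after its values were seen. Most strong replicate peaks had no counterpart: 468 of 544 in replicate 1 (86.0%; 85.0% over all chromosomes) and 503 of 566 in replicate 2 (88.9%; 86.0% over all chromosomes) overlapped neither a combined peak nor a strong peak of the other replicate. A combined peak was overlapped by 9.19% of the strong V peaks of replicate 1 (50 peaks; 8.53% over all chromosomes) and by 6.36% of those of replicate 2 (36 peaks; 7.30% over all chromosomes).

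The number 3000 marks no step in strength, and near it number and score did not keep the same order in replicate 1. In replicate 1 the nearest V peak inside it was number 2990 at 5389123 to 5389626, with a score of 0.822 on the peak caller's own scale, and the nearest outside was the peak that follows number 3000 directly, at 11079153 to 11079656, with 0.823. In replicate 2 these were number 2999 at 13675990 to 13676509 with a score of 0.906 and number 3004 at 13431298 to 13431817 with 0.903. None of these 4 peaks overlapped a combined peak. At the strong end the score was capped, and 43 V peaks of replicate 1 and 71 of replicate 2 shared the highest value of their list.

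Strong MML-1 peaks on V were concentrated in the middle of the chromosome. The span of V, from the earliest start to the last end in the 3 lists, was 20.9 Mb, and its central 33.3%, from 6975711 to 13948061, is called the centre here. The centre held 278 of 544 strong peaks in replicate 1 (51.1%, 46.8 to 55.4%), against 2031 of 5249 weak V peaks (38.7%). In replicate 2 it held 272 of 566 strong peaks (48.1%, 43.9 to 52.3%), against 2131 of 5337 weak ones (39.9%). In the combined list it held 43 of 71 (60.6%, 48.3 to 72.0%), against 39.3% of the weak peaks of both lists together. Those weak peaks come from the replicate lists, which name another source program than the combined list. In this comparison, strength and the way the peaks were called cannot be told apart.

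The excesses over weak peaks were 12.4 percentage points in replicate 1, 8.13 in replicate 2 and 21.2 in the combined list. The excesses of the replicates compare peaks of the same list, whereas that of the combined list does not, so its size is not comparable with theirs. Two-sided exact binomial tests with Benjamini-Hochberg adjustment over the 3 lists gave adjusted p = 1.56e-08 for replicate 1, p = 0.000138 for replicate 2 and p = 0.000359 for the combined list. The 2 replicates showed the same direction, and the combined list is not counted as a further replicate. The tests treat peaks as independent. With peaks within 10 kb merged into loci, the centre held 177 of 375 loci in replicate 1 (47.2%, exact p = 0.000824) and 32 of 50 combined loci (exact p = 0.000688), but in replicate 2 it held 162 of 369 (43.9%) and the difference no longer passed (exact p = 0.123). Weak peaks themselves were above the 33.3% of the span that the centre occupies.

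**Figure D2:**
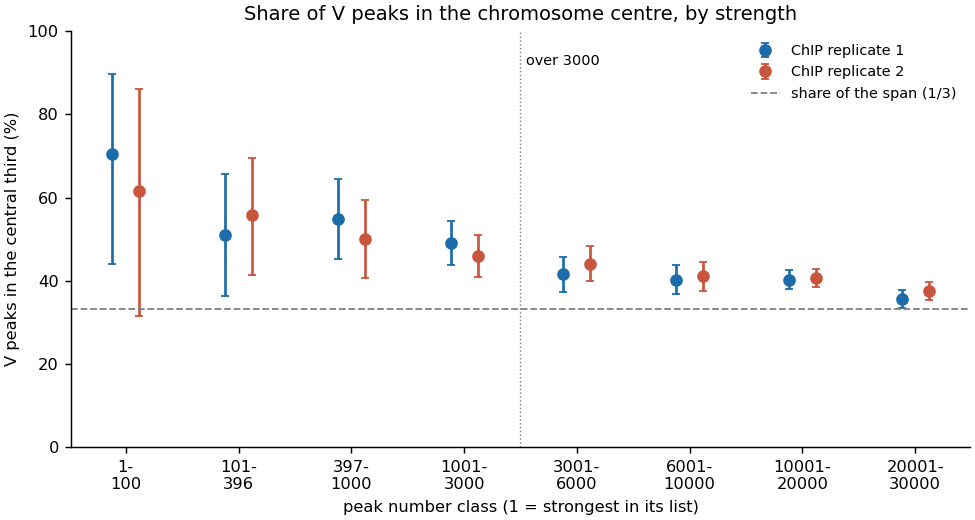
Share of the V peaks that lay in the central 33.3% of the chromosome (vertical, %) for classes of peak number from strongest to weakest (horizontal) in ChIP replicate 1 and ChIP replicate 2; bars are exact 95% intervals, the dashed line is the share of the span and the dotted line separates numbers over 3000. The points lie at 51.0% and 55.8% in the class after number 100 and at 35.6% and 37.6% in the weakest class, and the class of numbers 1 to 100 holds under 20 peaks in each list.

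The share in the centre fell with weaker peaks in both lists. In the class after number 100 it was 51.0% of 49 peaks in replicate 1 and 55.8% of 52 in replicate 2, and in the next, up to number 1000, it was 55.0% of 111 and 50.0% of 118. Above 1000 and up to 3000 it was 49.0% and 46.0%, and above 3000 and up to 6000 it was 41.5% and 44.1%. In the weakest class, above 20000, it was 35.6% (33.5 to 37.8%) and 37.6% (35.5 to 39.8%). The class 1 to 100, with 12 of 17 peaks in replicate 1 and 8 of 13 in replicate 2, had the highest shares, 70.6% and 61.5%, but intervals wide enough to take in the next 3 classes. Among combined peaks, the centre held 25 of the 36 with smaller q-values (69.4%, 51.9 to 83.7%) and 18 of the 35 with larger ones (51.4%, 34.0 to 68.6%), with intervals that overlapped.

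The order of the arms differed between the replicates, with intervals of the left and right arm that overlapped in each and no test of the difference. In replicate 1 the left arm held 151 strong peaks (27.8%, 24.0 to 31.7%) and the right arm 115 (21.1%, 17.8 to 24.8%). In replicate 2 the left arm held 136 (24.0%, 20.6 to 27.8%) and the right arm 158 (27.9%, 24.3 to 31.8%). Weak peaks were spread almost evenly over the arms, at 30.7% on the left and 30.6% on the right in replicate 1 and 30.6% and 29.5% in replicate 2. The combined list had 6.17 peaks per Mb in the centre, against 2.15 per Mb on the left arm (15 peaks) and 1.86 per Mb on the right arm (13 peaks). The median q-value was 0.000347 in the centre, against 0.00124 on the left arm and 0.00145 on the right arm.

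Other autosomes give the scale of this pattern. The centre share in replicate 1 was 51.1% on V, against 45.5% on I, II, III and IV together (43.1 to 47.8%). In replicate 2 it was 48.1% on V, against 46.1% (43.7 to 48.5%), and in the combined list it was 60.6% on V, against 45.8% (38.9 to 52.7%). The intervals overlapped in all 3 lists, and the difference between V and the other autosomes was not tested. Taken singly, the other autosomes ranged from 40.9 to 48.5% in replicate 1 and from 41.4 to 50.1% in replicate 2. In the combined list they ranged from 34.9 to 55.7%. In replicate 2, chromosomes I (50.1%) and III (48.7%) lay above V. V carried 17.9% of the combined peaks, 18.1% of the strong peaks of replicate 1 and 18.9% of those of replicate 2, with 20.9% of the genome span. Its share of the peaks numbered 1 to 100 was 17.0% and 13.0%, and of those numbered above 20000 it was 19.6% and 20.3%.

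**Figure D3:**
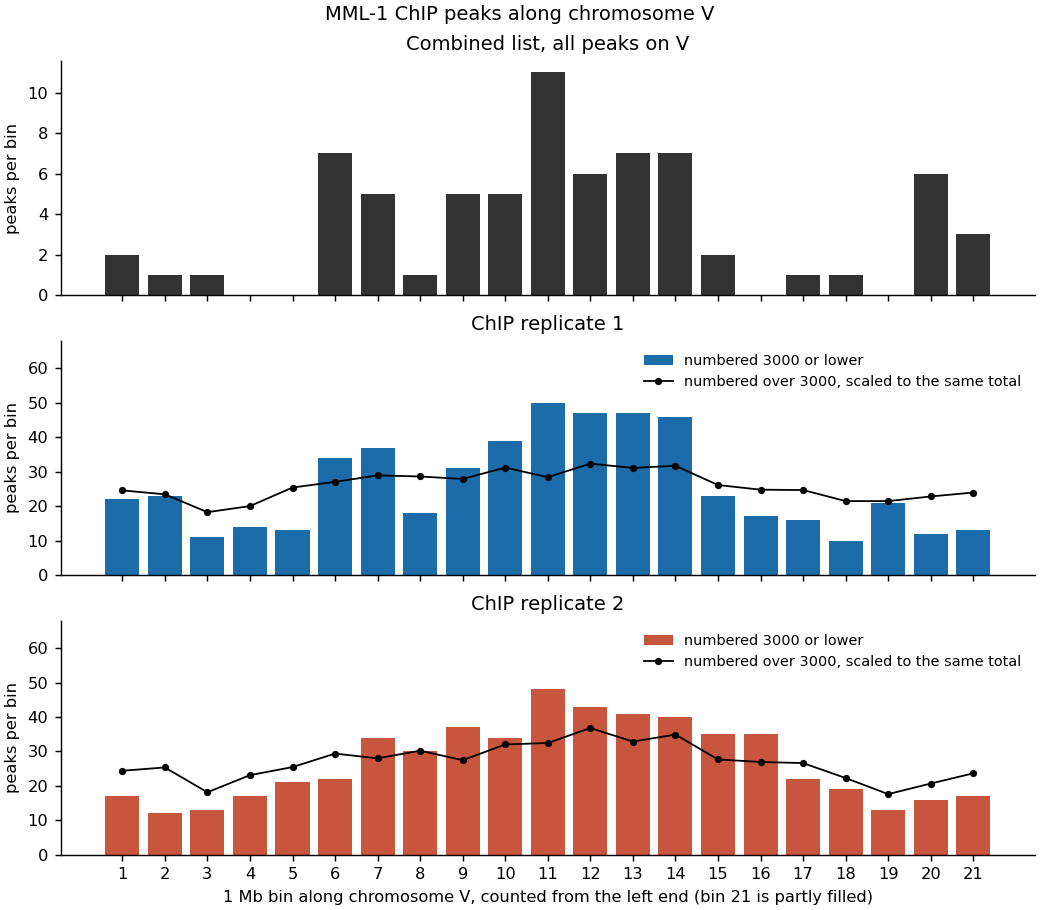
Number of peaks in each 1 Mb bin along V (horizontal, bins counted from the left end) for the combined list and for the strong peaks of ChIP replicate 1 and ChIP replicate 2 (bars), with the weak peaks of the same list scaled to the same total (line). The bin from 10 to 11 Mb is the fullest in all 3 panels, with 11, 50 and 48 peaks.

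In bins of 1 Mb, the bin from 10 to 11 Mb was the fullest in every list, with 11 combined peaks, 50 strong peaks of replicate 1 and 48 of replicate 2. In the replicates the next fullest bins lay in the centre too. Replicate 1 had 47 strong peaks both from 11 to 12 Mb and from 12 to 13 Mb, and replicate 2 had 43 from 11 to 12 Mb. The combined list had 7 peaks in each of the bins from 12 to 13 and 13 to 14 Mb and also in the bin from 5 to 6 Mb, which lies on the left arm. The sparsest bin of replicate 1 was 17 to 18 Mb with 10 strong peaks, and that of replicate 2 was 1 to 2 Mb with 12. The median was 22 strong peaks per bin in each replicate. The fullest bin held 5 times as many strong peaks as the sparsest in replicate 1 and 4 times as many in replicate 2, against 1.77 and 2.09 times for weak peaks. Counting noise alone makes such a ratio larger for strong peaks, since weak peaks had medians of 245 and 254 per bin. The stretch from 5 to 15 Mb, drawn after the counts were seen, held 78.9% of the combined peaks, 68.4% and 64.3% of the strong peaks and 53.9% and 55.1% of the weak ones.

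The bin profiles of the replicates resembled each other, with Spearman's rho of 0.73 between their strong peaks over 21 bins. The weak peaks of the replicates were closer still, at 0.96, and strong peaks followed the weak peaks of their own list with a rho of 0.82 in replicate 1 and 0.88 in replicate 2. Expressed as a share of all V peaks in the bin, strong peaks gave a rho of 0.45 between replicates. These values describe bins of one chromosome and carry no test. The bin from 15 to 16 Mb was a point of difference, chosen after the counts were seen, with 17 strong peaks in replicate 1, 35 in replicate 2 and no combined peak.

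The combined list left long stretches of V empty. No combined peak lay in the bins from 3 to 4, 4 to 5, 15 to 16 and 18 to 19 Mb. The longest interval without one ran for 2.90 Mb on the left arm, from 2133927 to 5032219, next to the leading left-arm region. It was not empty in the replicates, which had 37 and 50 strong peaks there, the lowest numbers being 183 in replicate 1 and 207 in replicate 2. A second empty stretch of 2.00 Mb ran from 14848836 to 16847640 on the right arm, with 33 and 53 strong replicate peaks. The third, of 1.66 Mb, ended at the cluster on the right arm and held 28 and 19. Per Mb, replicate 1 had 12.8, 16.5 and 16.8 strong peaks in these stretches, against 26.0 over V. Replicate 2 had 17.3, 26.5 and 11.4, against 27.1 over V. Strong replicate peaks were thus sparser there too, except in the second stretch in replicate 2, which was near the level of V. The median distance between neighbouring combined peaks on V was 106445 bp, and 15 of the 70 distances were 2 kb or less.

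Combined peaks on V lay partly in clusters. With neighbours within 10 kb joined, the 71 peaks formed 50 loci, 40 of a single peak and 10 clusters that held 31 peaks (43.7%). Over all chromosomes 41.7% of combined peaks were in clusters, with a range of 33.3% on II to 57.1% on IV. Of the 10 clusters on V, 6 lay in the centre, and 6 held 3 or more peaks. Of the strong replicate peaks, 268 of 544 in replicate 1 (49.3%) and 314 of 566 in replicate 2 (55.5%) had a strong neighbour in the same list within 10 kb. Strong peaks were denser, at 26.0 and 27.1 per Mb against 3.39 per Mb in the combined list, and higher density alone brings neighbours closer. No share over all chromosomes stands beside these values, so they are not read as grouping.

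The cluster with most combined peaks was on the right arm, at 19521705 to 19530451, with 6 peaks in 8.75 kb around the region numbered 5 and 6. Its 6 peaks ranged from q = 5.36e-64 to 0.00273. Replicate 1 had 4 strong peaks there, numbers 5, 105, 952 and 1030, and replicate 2 had 2, numbers 6 and 189. Both strong peaks of replicate 2 were paired with the 2 leading ones of replicate 1, and the other combined peaks of the cluster were strong in replicate 1 only or in neither. It supplied all 6 combined peaks of the bin from 19 to 20 Mb.

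In the centre, 5 combined peaks spread over 14.8 kb from 10715123 to 10729892, with a smallest q-value of 2.79e-15. Replicate 1 had 9 strong peaks there, its largest group on V, numbered from 61 to 2655, and replicate 2 had 6, numbered from 40 to 466. At the left end the lists matched closely, with 3 combined peaks that were strong in both. Further right they parted: number 93 of replicate 1 and number 40 of replicate 2 lay next to each other without overlapping, as described for the combined peak at 10719673. Replicate 2 also had number 91 within this cluster.

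The leading region of V belonged to a compact cluster of 3 combined peaks in 3.28 kb, from 12634749 to 12638031. Numbers 8, 78 and 139 of replicate 1 and numbers 12 and 35 of replicate 2 fell in it, and its middle peak at 12635798 to 12636603 (q = 4.25e-07) was strong in replicate 1 only, as number 139. A cluster of 3 in 8.58 kb at 11794160 to 11802743 held the region numbered 24 and 38 and, at its right end, a peak numbered 662 and 150. The 2 clusters of 3 on the left arm were at 5758854 to 5769854 and at 6239887 to 6246978. At 6239887 to 6246978 the lowest numbers were 305 in replicate 1 and 25 in replicate 2, and at 5758854 to 5769854 they were 1618 and 105.

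**Figure D4:**
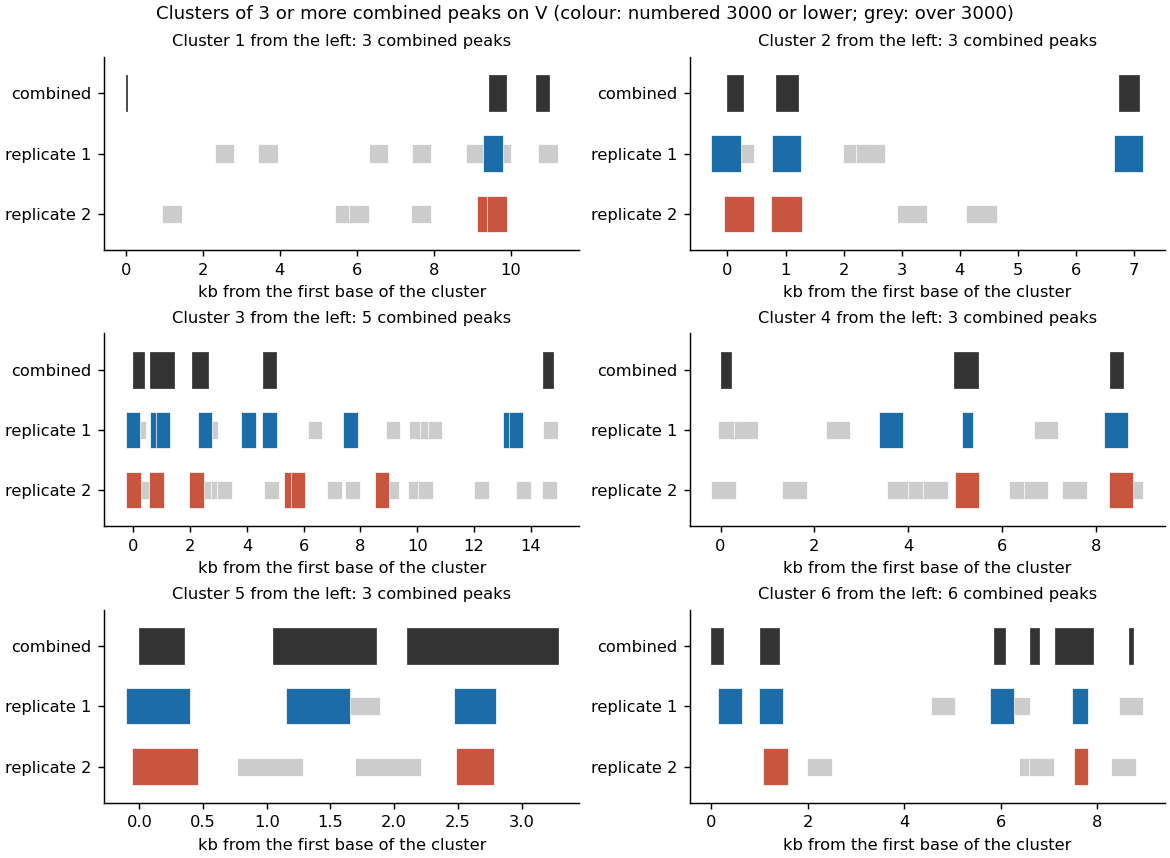
Maps of the 6 clusters on V with 3 or more combined peaks, in order from the left end of the chromosome; the horizontal axis is the distance in kb from the first base of the cluster, boxes are peaks of the combined list, ChIP replicate 1 and ChIP replicate 2, coloured when combined or numbered 3000 or lower and grey when numbered over 3000. Each cluster holds at least 1 strong peak of each replicate, and the cluster of 5 combined peaks holds 9 strong peaks of replicate 1 and 6 of replicate 2.

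Groups of strong peaks in one replicate were not always matched in the other. The counts that follow are of peaks lying in the same stretch, which need not overlap. The stretch of 7 strong replicate 2 peaks from 11673812 to 11708195, of which the lowest number was 856, held no strong replicate 1 peak and no combined peak. That of the 7 from 13212566 to 13241907, led by number 98, held 3 strong peaks of replicate 1 and 1 combined peak. Of these 3, number 116 had the lowest number and overlapped number 98. In replicate 1, the stretch of 7 strong peaks from 6218692 to 6247044 held 4 of replicate 2 and 3 combined peaks. That of 6 from 10458960 to 10475726, led by number 49, held 1 of replicate 2 and 1 combined peak.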

How the data were processed

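ChIP-seq peak lists of MML-1 were analysed as deposited. Per the file headers, coordinates are on WormBase WS220. The combined list names PeakSeq as its source, and the authors deposited a q-value for each peak. Each replicate list names spp_via_IDR, and the authors deposited a score and a peak number for each of 30000 peaks; the score was used only to describe strength within a list. For the aligner, versions, filters, control and pooling, nothing is given in the sources used here. The lists hold no read counts, so depth is unknown, and input samples were not analysed beyond their labels.

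Overlap was 1 bp or more. Positions were peak midpoints, the span of V ran from 3360 to 20920411, and loci joined peaks with gaps of 10 kb or less. Shares have exact Clopper-Pearson 95% intervals. Centre shares were compared with those of V peaks numbered over 3000 by two-sided exact binomial tests, adjusted over 3 lists, with a threshold of 0.05. Locus tests used the unmerged weak peaks as background. The overlap and locus code was tested on simulated data. Python 3.11.15, numpy 2.4.6, pandas 2.3.3, scipy 1.17.1, statsmodels 0.14.6 and matplotlib 3.10.9 were used.

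Regions named by rule were the 12 combined V peaks with the smallest q-values, the 5 lowest numbers per replicate, clusters of 3 or more, the fullest and sparsest bins, the 3 largest number differences, the strongest unmatched replicate peaks, the peaks next to number 3000, and the largest q-value and width. The members, lists and tests were chosen with earlier results of these data known. Search for E-boxes and genes was not run, since no genome or annotation of WS220 was used here.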

Additional observations from a re-analysis of the deposited data

How the results depend on the processing

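No paired analysis was possible because only ChIP samples entered the comparisons, so no numbered ChIP sample had a partner within them. The labels do give each ChIP sample an input of the same number, but the inputs were not analysed beyond those labels. The centre excess on V stayed above its background in all 15 alternatives and passed in 14; in replicate 2, merging peaks within 10 kb into loci lowered it to 43.9% (exact binomial p = 0.123). Overlap of strong replicate peaks rose at a number limit of 1000 to 15.3% of replicate 1 and 14.8% of replicate 2, and against the other replicate's full list to 45.0% and 42.9%. The share of combined V peaks with a strong peak in both replicates was 69.4% for the 36 with the smaller q-values, 25.4% at 50% reciprocal overlap, 76.1% against the full lists and 57.7% within 1 kb, the last chosen after seeing the data. With a single replicate it was 49.3% (without replicate 1) to 66.2% (without replicate 2). The 36 peaks with smaller q-values formed 26 loci, against 50 for all combined V peaks, and a lower count follows from the smaller number of peaks. The other alternatives kept their calls or stayed within the main intervals. Depth is unknown, so a peak absent from a list cannot be called unbound.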
